A study of Mus musculus with 13 samples.

Results

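The mRNAs of the cytosolic ribosomal proteins, the protein subunits of the ribosomes that translate nuclear-encoded mRNA, were measured in the whole brain of 13 mice of 4 Adar genotypes. Members were the protein-coding entries of the deposited count table whose symbol is Rpl or Rps followed by a digit, or Rplp0, Rplp1, Rplp2 or Rpsa, with a mean of at least 1 CPM (counts scaled to a common library total) over the 13 libraries. Kinases and binding proteins with similar symbols, Rps3a1, Rps3a2 and Rps3a3, and symbols marked as pseudogenes were left out by name. This left 81 of 54307 entries: 46 of the large subunit, 3 of its stalk and 32 of the small subunit. Of 84 entries that met the name rule, the nearest to the threshold inside it were Rps27, at a mean of 1.84 CPM, and Rpl36, at 2.88 CPM. Outside it were Rpl3l at 0.218 CPM, Rpl39l at 0.0869 CPM and Rpl10l, listed at 0.

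All animals were C57BL/6 mice. Adar encodes ADAR1, which edits adenosine to inosine where RNA is double-stranded, and P195A is a substitution in its Z-nucleic acid binding domain. The groups were 3 wild-type mice (wt; 2 females and 1 male, aged 48, 48 and 74 days), 3 P195A/+ mice (2 females and 1 male, 43 days), 4 P195A/P195A mice (3 females and 1 male, aged 42, 42, 48 and 48 days) and 3 P195A/- mice (2 females and 1 male, 42 days). For P195A/- a longer label of the same animals has P195A on each side and also AdarKO/+, with no explanation in the labels, so that the allele opposite P195A is given here only as the short label gives it. The labels say nothing of litters or of separate preparation days, and age cannot be told apart from genotype except between the 48-day animals of wt and P195A/P195A and between the 42-day animals of P195A/P195A and P195A/-.

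A ribosome is built from ribosomal RNAs and 1 copy of most ribosomal proteins in each subunit, and the proteins are made in balanced amounts. Their mRNAs are short, abundant and stable, and most begin with a 5′ terminal oligopyrimidine tract, a cytosine followed by a run of pyrimidines. Through this tract their translation is switched on by the kinase complex mTORC1 and held back by LARP1 when mTORC1 is inactive. In neurons they are also found in dendrites and axons, where local translation takes place. Many have processed pseudogenes, copies of the mRNA inserted elsewhere in the genome, which can share reads with the parent gene.

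The start site carries the tract, so 30 bases around the annotated starts (15 before and 15 from the start) are shown for members described below. Starts are those of RefSeq in GRCm38.p6, which had a window for 61 of the 81 members. Capitals mark a C followed by at least 4 pyrimidines, at the start where it has one and otherwise the longest such run beginning within 10 bases of it. The mRNAs of Rps27, Rpl38 and Rps6 begin with the tract. In Rpl13a the run begins a few bases after the start, and in Rps24 it begins just before the start and spans it. A further annotated start of Rps24, not shown, has no such run. Rplp0, Rps4x and Rpsa have none in this window.
Rps27 (chr3:90213634-90213663, minus strand): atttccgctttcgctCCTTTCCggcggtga
Rpl38 (chr11:114668565-114668594, plus strand): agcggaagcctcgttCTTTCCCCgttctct
Rps6 (chr4:86857353-86857382, minus strand): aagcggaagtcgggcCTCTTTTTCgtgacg
Rpl13a (chr7:45128731-45128760, minus strand): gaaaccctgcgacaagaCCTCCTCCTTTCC
Rps24 (chr14:24490663-24490692, plus strand): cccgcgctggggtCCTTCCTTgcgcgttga
Rplp0 (chr5:115559452-115559481, plus strand): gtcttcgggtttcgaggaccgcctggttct
Rps4x (chrX:102189377-102189406, minus strand): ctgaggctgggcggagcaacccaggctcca
Rpsa (chr9:120127751-120127780, plus strand): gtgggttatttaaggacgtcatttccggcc

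A tract at the annotated start was present in 14 of 72 member windows (19.4%), against 823 of all 32851 windows of the same length (2.51%); only the transcribed strand was searched. Within 10 bases of the start the shares were 54.2% and 30.7%. These are matches of letters at annotated starts, which can differ from the start used in brain. The 14 members with a tract at the start had a median log2 fold change of 0.20 in P195A/- against wt and the 47 without one 0.086, while in P195A/+ the medians were 0.069 and 0.086 and in P195A/P195A -0.020 and -0.0094. None of these differences was tested.

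Levels are CPM after scaling by the trimmed mean of M values (TMM), which removes differences in library composition. Library totals ranged from 13539148 to 22399005 counts. Adar itself stood at 180 CPM ± 13.3 (SD, n = 3) in wt, 239.8 ± 6.63 (n = 3) in the P195A/+ mice, 323 ± 28.6 (n = 4) in P195A/P195A and 201 ± 4.28 (n = 3) in P195A/-. Markers of brain cells were present in every library: all 8 neuronal, 7 astrocyte, 7 oligodendrocyte and 7 microglial markers had counts in each. The 3 libraries that stand apart for the ribosomal protein genes are P195A/P195A replicates 2 and 3 and P195A/- replicate 3. P195A/- replicate 3 also has 1.57% of its counts in mitochondrial genes, against 0.457 to 0.790% in the other 12 libraries. The medians and counts of each comparison are also given without these libraries.

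The 81 genes together held 0.397% of all counts in wt (SD 0.0139, n = 3), 0.421% in P195A/+ (SD 0.0166, n = 3), 0.385% in P195A/P195A (SD 0.0672, n = 4) and 0.414% in P195A/- (SD 0.0344, n = 3). By library the shares were 0.382, 0.409 and 0.401% in wt, 0.402, 0.427 and 0.433% in the P195A/+ mice, 0.356, 0.318, 0.476 and 0.389% in the P195A/P195A mice, and 0.380, 0.412 and 0.449% in P195A/-. The lowest and the highest of the 13 shares both belonged to P195A/P195A animals, and the 4 genotypes overlapped. In whole-brain RNA, fewer cells with a high ribosomal protein mRNA content and less of this mRNA per cell cannot be told apart.

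Levels of different genes were compared per length of the GENCODE M21 transcript, each gene without the counts of its copies elsewhere in the genome. Per kilobase the mean level ran from 5.31 to 209 CPM with a median of 39.6. Each length is that of 1 annotated transcript per gene, which can differ from the form used in brain. Among the members, mean CPM and this length had a Spearman's rho of 0.49. The lowest per kilobase, Rps27, had the shortest transcript (345 nt), and the highest, Rpl26, had 606 nt. How far length and the choice of transcript set this range was not tested. Among large-subunit genes outside the stalk Rpl26 was highest (209 CPM per kb), followed by Rpl3, which lies next to the peptidyl transferase centre (193 CPM per kb), and Rpl9 (164 CPM per kb); Rpl36al (5.57), Rpl24 (5.81) and Rpl28 (6.16 CPM per kb) were lowest. In the small subunit Rps4x, the X-linked form of eS4, was highest at 173 CPM per kb, followed by Rps2 at 136 CPM per kb, and Rps27 was lowest at 5.31 CPM per kb. The bars of neighbouring genes in this order mostly overlap in the plot of levels per kilobase. Members were short: their transcripts had a median of 878 nt (345 to 5179), against 3109 nt over the 15256 protein-coding genes tested. The depth behind each member follows its CPM, which is not comparable between genes of unequal length. The deepest members included Rpl3 (mean CPM 260.3), Rps4x (169), Rpl7 (167), Rps2 (149) and Rpsa (133), and the shallowest Rps27 (1.83), Rpl36 (2.89), Rpl36a (3.43), Rpl24 (3.93) and Rps28 (3.96).

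**Figure D1:**
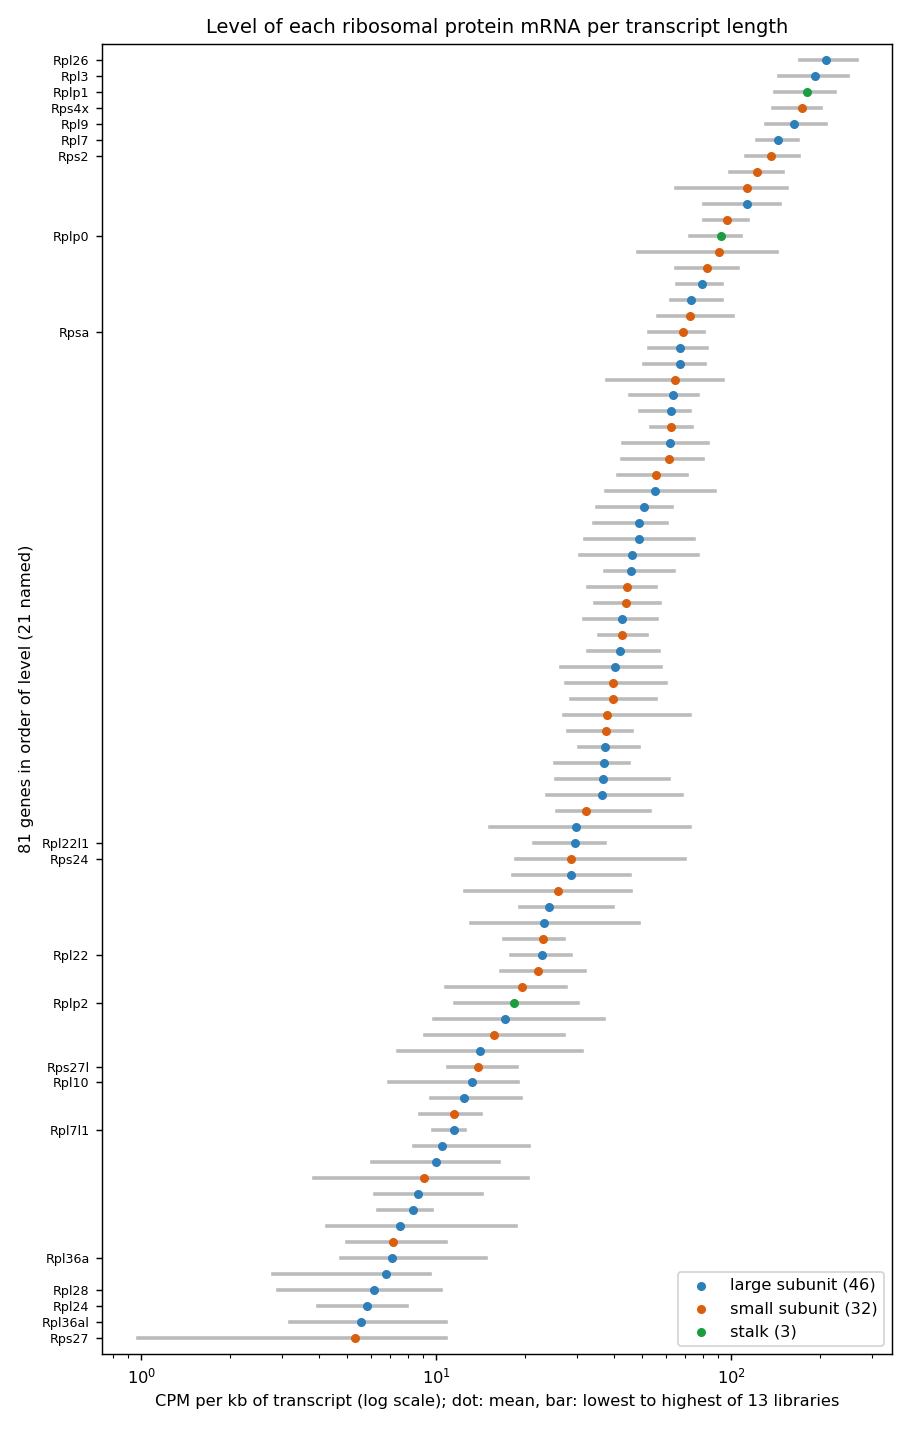
Mean level of each of the 81 members in CPM per kb of transcript (log axis), with bars from the lowest to the highest of 13 libraries, names for genes described in the text and colours for large subunit, small subunit and stalk. Levels run from 5.31 CPM per kb for Rps27 to 209 for Rpl26, and Rps27 has the widest bar of the low members.

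The stalk of the large subunit recruits translation factors and holds Rplp0 with dimers of Rplp1 and Rplp2. Per kilobase, Rplp1 had 182 CPM, Rplp0 92.3 and Rplp2 18.4. Rplp0 was measured at 123, 132 and 139 CPM in wt, 132, 123 and 145 in the P195A/+ mice, 106, 98.5, 147 and 120.2 in the P195A/P195A mice, and 127, 127 and 110.3 in P195A/-. The genotypes overlapped. Rplp2 was measured at 16.8, 17.4 and 17.8 CPM in wt, 16.5, 14.4 and 17.5 in the P195A/+ mice, 15.9, 11.2, 19.1 and 20.2 in the P195A/P195A mice, and 16.4, 18.3 and 29.2 in P195A/-. Its highest value was that of P195A/- replicate 3 and its lowest that of P195A/P195A replicate 2. None of the 3 stalk genes had an unadjusted p under 0.05 in any of the 4 comparisons.

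Several members have a paralog that is used in other tissues or as a minor form. Of the pairs, Rpl3, Rpl39 and Rpl10 were expressed while Rpl3l, Rpl39l and Rpl10l lay under the threshold, as given above. Rpl22, an RNA-binding protein of the large subunit, had 22.8 CPM per kb and its paralog Rpl22l1 29.7. Rpl22l1 was measured at 15.6 CPM ± 2.84 (SD, n = 3) in wt, 17.7 ± 1.36 (n = 3) in the P195A/+ mice, 16.6 ± 2.96 (n = 4) in P195A/P195A and 15.6 ± 4.06 (n = 3) in P195A/-, and the ranges overlapped. Rpl7 had 144 CPM per kb and Rpl7l1 11.5, Rpl36a 7.10 and Rpl36al 5.57. Rps27l, a paralog of Rps27 known as a p53 target, had 13.9 CPM per kb against 5.31 for Rps27; Rps27rt, whose reads cannot be told apart from those of Rps27 with certainty, had 25.9.

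In wild type the members' coefficient of variation over the 3 animals had a median of 8.78%, not set beside that of all genes. It was lowest for Rps9 (1.64%), Rps7 (2.72%) and Rpl13a (2.91%) and highest for Rps27 (52.1%), Rpl28 (39.3%) and Rpl36a (39.1%). Over all 13 libraries the highest value of a member was a median of 1.88 times its lowest, and 37 members spanned more than 2-fold. The highest value fell in P195A/- replicate 3 for 39 members and in P195A/P195A replicate 3 for 26. The lowest fell in P195A/P195A replicate 2 for 52 members.

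The members moved together between animals. Each member's log2 CPM was set against its own mean over the 13 libraries, and the median of these deviations over the 81 members was taken for each library. It was -0.026, 0.024 and -0.079 in wt, -0.044, 0.073 and 0.11 in the P195A/+ mice, -0.17, -0.37, 0.29 and 0.0046 in the P195A/P195A mice, and -0.065, 0.032 and 0.26 in P195A/-. Over all genes tested the same median stayed between -0.0085 and 0.011 in every library. TMM scaling centres most genes in each library, so this median lies near 0 by construction. It does not show how far a gene group of this size moves between libraries. In P195A/P195A replicate 3, 77 of 81 members stood above their own mean, and in P195A/P195A replicate 2 only 4 did. The spread within P195A/P195A (SD 0.28, n = 4) was larger than the distance between any pair of genotype means, which were -0.027 in wt, 0.046 in the P195A/+ mice, -0.060 in P195A/P195A and 0.075 in P195A/-. Within P195A/P195A, replicates 1 and 2 were the animals of 42 days and replicates 3 and 4 those of 48 days. P195A/P195A replicate 2 and P195A/- replicate 3 were the only males of their groups. The part of age and sex in this spread was not tested. Both subunits moved alike: the small-subunit median was -0.37 in P195A/P195A replicate 2 and 0.30 in replicate 3, and the large-subunit median -0.38 and 0.29.

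**Figure D2:**
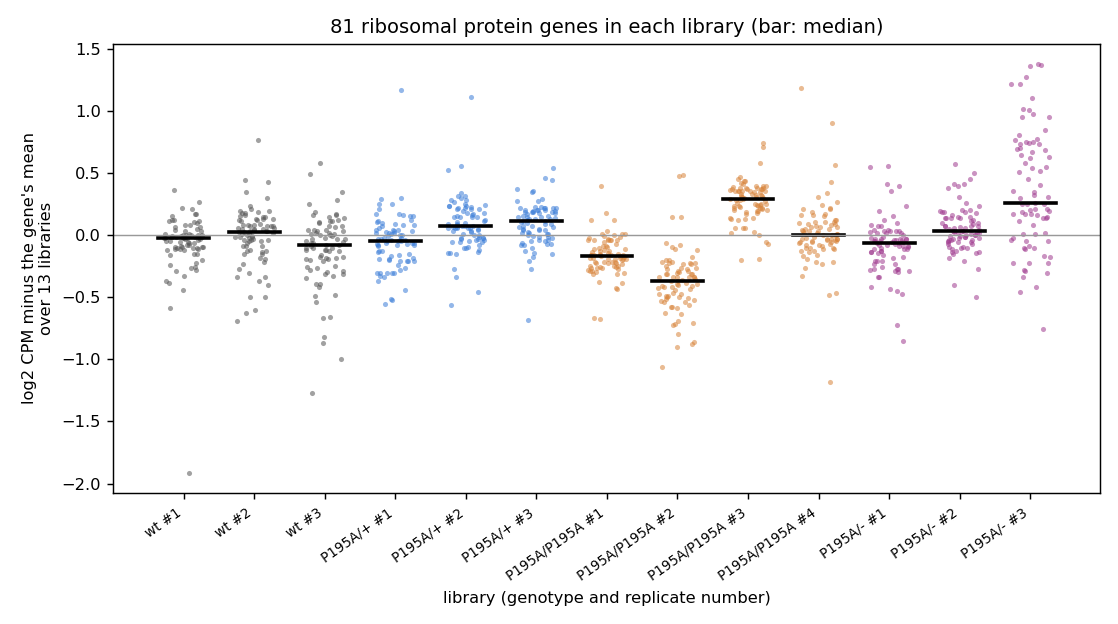
Each point is 1 of the 81 members in 1 library, as log2 CPM minus that gene's mean over 13 libraries; bars are medians, and colours mark the 4 genotypes. The medians of P195A/P195A replicates 2 and 3 lie at -0.37 and 0.29, and P195A/- replicate 3 lies at 0.26 with the widest spread.

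The first principal component of the 81 genes held 52.1% of their variance. Its library weights were 0.70 for P195A/- replicate 3, -0.48 for P195A/P195A replicate 2 and 0.30 for P195A/P195A replicate 3, and between -0.27 and 0.14 for the other 10. The median Pearson correlation over the 3240 pairs of members was 0.49 over 13 libraries and 0.21 over the 10 libraries without these 3. The pairs share libraries, scaling and, for near-identical copies, reads, so these are descriptions only.

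Other gene groups moved with the members in the same 3 libraries. In P195A/P195A replicate 2 the median deviation was -0.39 for 226 other protein-coding genes with transcripts of at most 731 nt, -0.29 for nuclear genes of the respiratory chain, -0.22 for mitochondrial ribosomal proteins and -0.17 for elongation factors and other mRNAs with the pyrimidine tract. In P195A/P195A replicate 3 the 4 values were 0.20, 0.20, 0.20 and 0.16, and in P195A/- replicate 3 they were 0.20, 0.27, 0.12 and 0.063. They also stood above 0 in P195A/+ replicate 3, at 0.14, 0.17, 0.13 and 0.088, where the members' median was 0.11. Ribosome biogenesis factors, which assemble the subunits in the nucleolus, lay at -0.00049, 0.058 and 0.032 in P195A/P195A replicates 2 and 3 and P195A/- replicate 3. The 7 microglial markers were all under their own mean in P195A/P195A replicate 2 and all above it in replicate 3, with summed levels of 189 and 316 CPM, and at 226 to 263 CPM in the other 11 libraries; none of the 7 was at 0 in any library. Other marker lists moved too: in P195A/P195A replicate 2, 0 of 6 endothelial, 0 of 6 meningeal, 1 of 8 neuronal and 1 of 7 astrocyte markers stood above their own mean, and in replicate 3, 5 of 6, 1 of 6, 6 of 8 and 5 of 7 did, with 5 of 5 oligodendrocyte precursor markers. Not all lists followed the members. In these replicates 7 and 8 of 8 olfactory bulb and neuroblast markers stood above their own mean. For oligodendrocytes it was 2 of 7 in both, for cerebellar granule cells 1 and 0 of 5. For choroid plexus and ependyma it was 1 and 2 of 6, and for blood cells 0 and 4 of 5. In P195A/- replicate 3 it was 3 of 7 for microglia, 3 of 6 endothelial, 1 of 6 meningeal, 5 of 8 neuronal and 4 of 7 astrocyte. There it was also 5 of 5 for cerebellar granule cells, 0 of 5 for blood cells and 2 of 8 for olfactory bulb and neuroblasts. For oligodendrocytes it was 4 of 7, for their precursors 1 of 5 and for choroid plexus and ependyma 4 of 6. The summed granule cell markers stood at 825 CPM there, the highest of the 13 libraries, and at 263 CPM in P195A/- replicate 2. By genotype the microglial sum was 241 to 251 CPM in wt, 226 to 256 in the P195A/+ mice, 189 to 316 in the P195A/P195A mice and 237 to 263 in P195A/-. The part of transcript length, of RNA from these cell types and of mitochondrial share in the members' deviations was not tested.

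The 3 libraries differed in how the deviation followed transcript length. In P195A/- replicate 3 the 27 shortest members (up to 731 nt) had a median deviation of 0.40, the 27 of middle length 0.31 and the 27 longest (over 1048 nt) 0.14. In P195A/P195A replicate 2 the medians were -0.39, -0.41 and -0.34, and in replicate 3 they were 0.35, 0.29 and 0.25. Length thus ordered the members most clearly in P195A/- replicate 3.

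**Figure D3:**
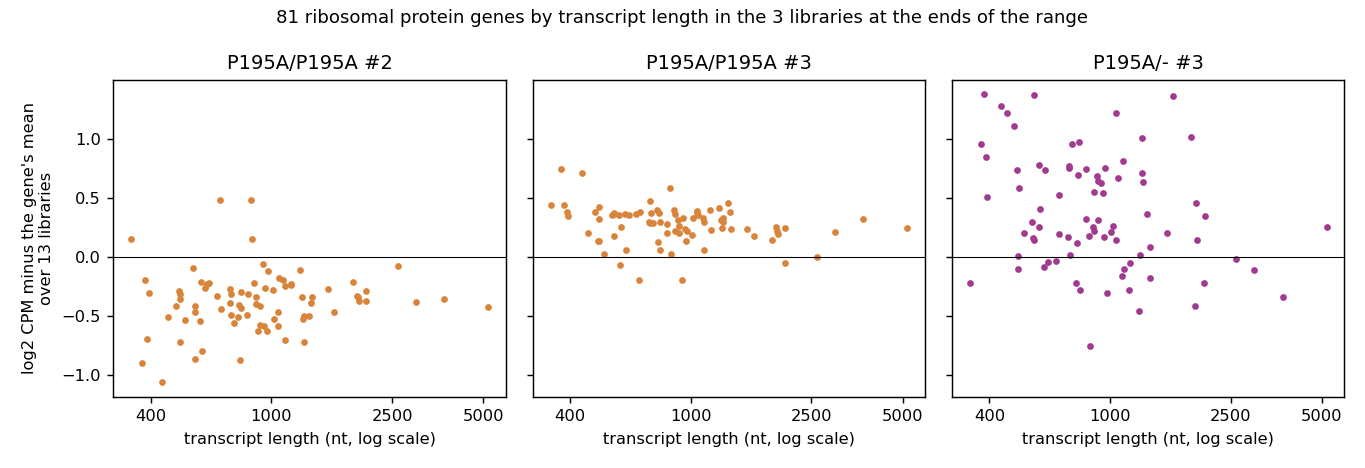
Deviation of each of the 81 members (log2 CPM minus its mean over 13 libraries) against transcript length in nt (log axis), in P195A/P195A replicates 2 and 3 and P195A/- replicate 3. In P195A/- replicate 3 the 27 shortest members have a median of 0.40 and the 27 longest 0.14, while in P195A/P195A replicate 2 the medians are -0.39 and -0.34.

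In P195A/+ against wt, the test of 1 mutant allele with the wild-type allele still present, the members sat slightly above wild type and none passed the test. The median log2 fold change was 0.073, against 0.0041 over all 19962 genes tested, and 62 of 81 members were above 0 (50.8% of all genes). Other protein-coding genes with transcripts of at most 731 nt had a median of 0.089, and nuclear genes of the respiratory chain 0.082. No member passed an adjusted p of 0.05 in edgeR's quasi-likelihood test, DESeq2 or limma-voom; of all genes 0.01% passed in edgeR. At an unadjusted p under 0.05, 2 members were higher (1.96% of all genes) and 0 lower (2.52% of all genes) in edgeR, and 3 higher in both DESeq2 and limma-voom. In edgeR the higher count was 1 to 3 with 1 library left out and 8 without the 3 libraries that stand apart, where 6.98% of all genes had such a p in either direction. Every P195A/+ library lay above every wt library for 8 members (5.62% of all genes) and below for 0 (6.32%). The median without P195A/+ replicate 3 was 0.051, with 47 members above 0, and without P195A/+ replicate 1 it was 0.14, with 69 above 0; without wt replicate 2 it was 0.11. This comparison and the next ones against wt share the same 3 control animals. Of the markers, 7 of 7 for oligodendrocytes were above 0 here (median 0.26). For olfactory bulb and neuroblasts it was 0 of 8 (median -0.49), and for blood cells 0 of 5 (median -0.50). The summed blood markers spanned 302 to 1189 CPM within wt. The part of these markers in the members' values was not tested.

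Of the members with the smallest p, Rps20, a protein of the small-subunit head, was measured at 41.4, 35.8 and 41.4 CPM in wt and 50.01, 52.4 and 47.5 in the P195A/+ mice, where the groups did not overlap (log2 fold change 0.34, SE 0.15, edgeR adjusted p = 1.0). Rpl11, which with Rpl5 and 5S ribosomal RNA binds the p53 regulator Mdm2, was measured at 36.1, 38.0 and 35.5 CPM in wt and 41.0, 47.1 and 48.7 in the P195A/+ mice, again without overlap (0.32, SE 0.15, edgeR adjusted p = 1.0). Neither difference passed over all genes. Among members of at least 10 CPM, the highest fold change was that of Rpl10 (0.50, SE 0.31, and 0.13 with its copies added), a late-joining protein of the large subunit, and the lowest that of Rps25 (-0.18, SE 0.23).

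In P195A/P195A against wt, the test of the mutation on both alleles, the members centred on wild type. The median log2 fold change was -0.019, against 0.0067 over all genes, and 36 of 81 members were above 0 (51.4% of all genes). The other short protein-coding genes had a median of 0.0049 and nuclear genes of the respiratory chain -0.00052. No member passed in edgeR, DESeq2 or limma-voom; 0.0501% of all genes passed in edgeR. At an unadjusted p under 0.05 edgeR had 3 members higher (2.96% of all genes) and 1 lower (2.94%), and DESeq2 and limma-voom had the same counts. Without P195A/P195A replicate 3 edgeR had 2 higher and 14 lower, beside 15.1% of all genes at that p, and without all 3 libraries that stand apart 2 higher and 9 lower, beside 9.42%. Without P195A/P195A replicate 1 or 2 or wt replicate 3 none was lower, and without wt replicate 1 there were 3. Every P195A/P195A library lay above every wt library for 2 members (2.69% of all genes) and below for 0 (3.79%). This median turned with the animals used: it was -0.14 with 16 members above 0 without P195A/P195A replicate 3, 0.067 with 61 above 0 without P195A/P195A replicate 2, and 0.15 with 73 above 0 among the animals of 48 days alone (2 in each genotype). It was also above 0 without P195A/P195A replicate 1 (0.019) and without wt replicate 2 (0.013). Olfactory bulb and neuroblast markers were above 0 in 8 of 8 (median 0.50) and astrocyte markers in 1 of 7 (median -0.19). Blood markers were above 0 in 0 of 5 (median -1.09) and meningeal markers in 1 of 6 (-0.26). Choroid plexus and ependyma markers were above 0 in 1 of 6 (-0.19). The part of these markers was not tested.

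Rpsa, the laminin receptor protein of the small subunit, was measured at 139.5, 144 and 157 CPM in wt and 113, 102, 151 and 121 in P195A/P195A. The P195A/P195A values were lower except replicate 3, and the groups overlapped (log2 fold change -0.27, SE 0.11, edgeR adjusted p = 0.8294). Rpl10 was measured at 8.54, 9.67 and 6.78 CPM in wt and 10.5, 15.03, 16.2 and 10.5 in P195A/P195A, with no overlap (0.65, SE 0.30, edgeR adjusted p = 0.8294). With the counts of its near-identical copies added, Rpl10 had a fold change of -0.019. The lowest fold change was that of Rpl5 (-0.57, SE 0.38), which ranged from 34.3 to 75.3 CPM within wt. With the counts of its copies added, Rpl5 was at 124 to 155 CPM in wt and 107 to 143 in P195A/P195A. Over the alternatives its fold change ranged from -0.85 to -0.20.

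In P195A/- against wt, the test of P195A opposite the allele written as a minus sign, the members sat higher and more unevenly, and none passed in edgeR. The median log2 fold change was 0.12, against 0.020 over all genes, and 57 of 81 members were above 0 (53.1% of all genes). The other short protein-coding genes had a median of 0.080 and nuclear genes of the respiratory chain 0.075. Of all genes 0.0351% passed in edgeR. At an unadjusted p under 0.05 edgeR had 11 members higher (4.58% of all genes) and 2 lower (6%), limma-voom 9 and 2, and DESeq2 15 and 2. The edgeR counts were 2 and 2 without P195A/- replicate 3, 20 and 1 without replicate 1, 21 and 3 without replicate 2, 11 and 3, 9 and 1 and 4 and 1 without wt replicates 1 to 3, and 4 and 6 without the 3 libraries that stand apart, where 15.4% of all genes had such a p. DESeq2 passed 1 member and limma-voom 0. Every P195A/- library lay above every wt library for 9 members (9.59% of all genes) and below for 3 (10.5%). Without P195A/- replicate 3, the library with the most mitochondrial counts, the median was 0.026 with 46 members above 0. It was 0.20 without P195A/- replicate 1 and 0.075 without wt replicate 1. Oligodendrocyte markers were above 0 in 6 of 7 (median 0.23), olfactory bulb and neuroblast markers in 1 of 8 (median -0.41) and blood markers in 0 of 5 (median -0.55). The part of these markers was not tested.

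The 27 shortest members had a median of 0.25 in this comparison, the 27 of middle length 0.20 and the 27 longest 0.033. For P195A/P195A the medians in the same order were 0.053, -0.057 and -0.042, and for the P195A/+ mice 0.098, 0.054 and 0.074. Over the 81 members, which share these libraries, Spearman's rho of fold change and length was -0.34 for P195A/-, -0.34 for the P195A/P195A mice and -0.16 for the P195A/+ mice. In wt replicate 3, a control of all 3 comparisons, the median deviations by length were -0.17, -0.067 and 0.0012. Among the 11 members that were higher at an unadjusted p under 0.05 were Rps27, Rpl38, Rps27rt, Rps28, Rpl36al, Rpl36, Rps24, Rpl39, Rps27a and Rpl19, named here after their values were seen. Of the 11, all but Rps27 had their highest value of all 13 libraries in P195A/- replicate 3.

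Rpl38, which is known for its part in the translation of Hox mRNAs, was measured at 6.35, 4.89 and 3.39 CPM in wt and 6.22, 8.00 and 14.3 in P195A/- (log2 fold change 0.97, SE 0.30, edgeR adjusted p = 0.278). Replicate 3 alone was above 8.00 CPM, and without it the fold change was 0.56. Rps24, a small-subunit protein mutated in Diamond-Blackfan anaemia, was measured at 45.2, 39.9 and 29.99 CPM in wt and 42.1, 49.7 and 113 in P195A/- (0.83, SE 0.33, edgeR adjusted p = 0.399). Without replicate 3 it was 0.27. The lowest fold change belonged to Rpl5 (-0.70, SE 0.41), with 26.8 to 43.6 CPM in P195A/-. With the counts of its copies added, Rpl5 was at 124 to 155 CPM in wt and 110 to 133 in P195A/-. Over the alternatives its fold change ranged from -0.98 to -0.19.

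In P195A/- against P195A/P195A, the test of that allele against a second P195A allele, 63 of 81 members were above 0 (50.8% of all genes), with a median of 0.14 against 0.0037 over all genes. The other short protein-coding genes had a median of 0.12 and nuclear genes of the respiratory chain 0.082. No member passed in edgeR, DESeq2 or limma-voom, and 0.0401% of all genes passed in edgeR. At an unadjusted p under 0.05 edgeR had 5 members higher (3.19% of all genes) and 0 lower (3.63%), DESeq2 7 and limma-voom 3. The edgeR count of higher members was 0 without P195A/- replicate 3, 16 and 14 without P195A/- replicates 1 and 2, 2, 1, 22 and 8 without P195A/P195A replicates 1 to 4, and 2 without the 3 libraries that stand apart. No member had every P195A/- library above (2.64% of all genes) or below (4% of all genes) every P195A/P195A library. The median was 0.018 without P195A/- replicate 3, 0.039 without P195A/P195A replicate 2 and 0.25 without P195A/P195A replicate 3, and 0.22 and 0.086 without replicate 1 of P195A/- and of P195A/P195A. Among the animals of 42 days alone (2 P195A/P195A and 3 P195A/-), a comparison added after the values were seen, it was 0.36 with 75 members above 0, 27 higher at an unadjusted p under 0.05 and none passing. That comparison leaves out P195A/P195A replicate 3 and keeps P195A/- replicate 3. Oligodendrocyte markers were above 0 in 6 of 7 (median 0.28), meningeal markers in 6 of 6 (0.32) and blood markers in 5 of 5 (0.55). For olfactory bulb and neuroblast markers it was 0 of 8 (-0.77, with 1 passing). The part of these markers was not tested. Rps27a, which is made as a fusion with ubiquitin, had the smallest p. It was measured at 22.5, 21.5, 30.3 and 29.2 CPM in P195A/P195A and 28.3, 32.5 and 57.3 in P195A/- (log2 fold change 0.61, SE 0.20, edgeR adjusted p = 0.608), and the groups overlapped. Without P195A/- replicate 3 its fold change was 0.24. Rpl38 (0.69, SE 0.28) and Rps24 (0.73, SE 0.30) followed, at 0.27 and 0.16 without P195A/- replicate 3.

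With all 3 libraries at the ends of the range left out, an alternative chosen after the values were seen, the medians were 0.073 in the P195A/+ mice, -0.052 in P195A/P195A and 0.011 in P195A/- against wt, and 0.051 in P195A/- against P195A/P195A. No member passed in that fit.

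**Figure D4:**
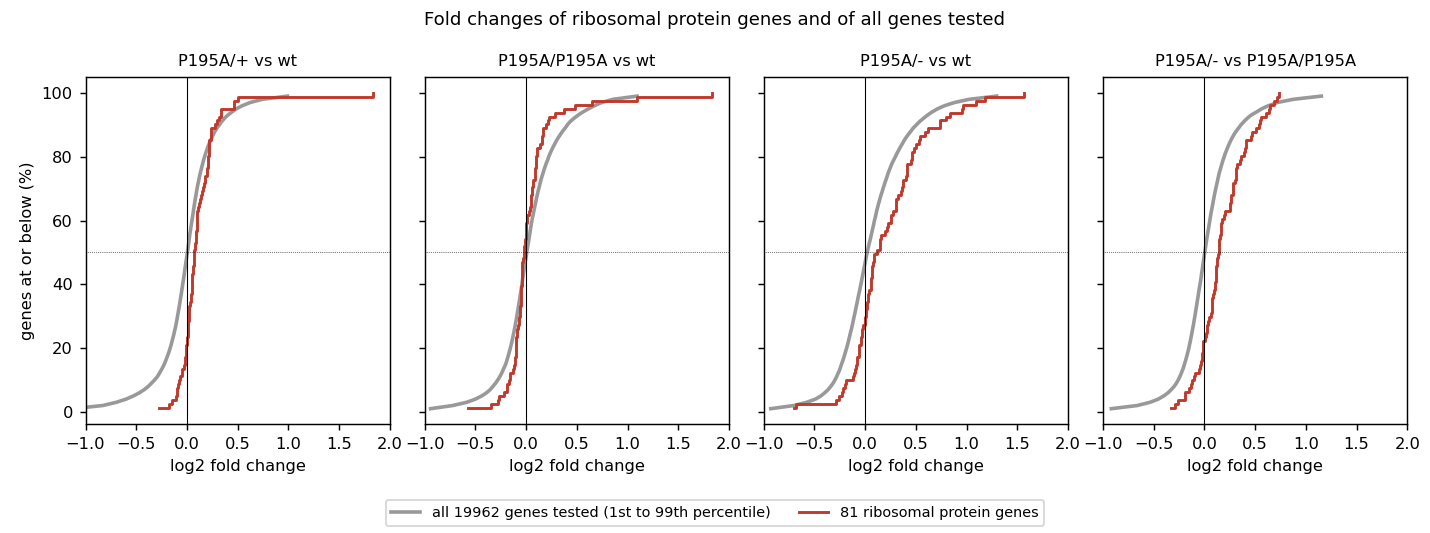
Cumulative share (%) of log2 fold changes in the 4 comparisons, for the 81 members (red) and for all 19962 genes tested (grey, drawn from the 1st to the 99th percentile). The members' curve crosses 50% at 0.073, -0.019, 0.12 and 0.14 from left to right, against 0.0041, 0.0067, 0.020 and 0.0037 for all genes.

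Rps27 was the member with the smallest p in each of the 3 comparisons with wt. It encodes a zinc-finger protein of the small subunit (ENSMUSG00000090733; GRCm38 chromosome 3, 90212522 to 90213651, minus strand, 459 kb beyond Adar). It was measured at 0.337, 0.999 and 0.587 CPM in wt, 1.53, 3.53 and 1.85 in the P195A/+ mice, 1.56, 1.75, 2.16 and 3.72 in the P195A/P195A mice, and 2.36, 2.08 and 1.33 in P195A/-. Every library with a P195A allele was above every wt library. All 3 wt values lay under the 1 CPM of the member rule, so Rps27 is a member only through the libraries with a P195A allele. Its separation from wt is therefore partly tied to the rule and is given as a description. The log2 fold changes were 1.83 (SE 0.47), 1.83 (SE 0.45) and 1.57 (SE 0.47), with edgeR adjusted p of 0.626, 0.694 and 0.270. These values rest on few reads, 6, 19 and 13 counts in wt and 24 to 73 in each other library. Genes within 100 kb of Rps27 with a mean of at least 1 CPM numbered 7, with median fold changes of -0.084, 0.034 and 0.065 in the same comparisons.

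Rps27 shares nearly all of its sequence with Rps27rt, a member on chromosome 9 (114982366 to 114982739): the transcripts were 100% identical over 98.84% of the shorter. Rps27rt was measured at 5.84, 6.20 and 4.79 CPM in wt, 5.95, 9.28 and 7.94 in the P195A/+ mice, 11.6, 4.67, 14.8 and 16.6 in the P195A/P195A mice, and 9.27, 11.8 and 17.2 in P195A/-. P195A/P195A replicate 2 was the lowest of all libraries, and the P195A/- libraries lay above wt. Its fold change in P195A/P195A was 1.09 (SE 0.34, edgeR adjusted p = 0.8294), and without P195A/P195A replicate 2 it was 1.36 and passed (adjusted p = 0.0446, in a range of 0.0446 to 0.999 over 19 alternatives). Reads of the pair cannot be told apart with certainty, so their counts were also summed, an alternative added after the values were seen. The sum had fold changes of 0.69 (SE 0.33), 1.20 (SE 0.31) and 1.22 (SE 0.33) against wt and 0.027 (SE 0.30) between P195A/- and P195A/P195A, with edgeR adjusted p of 1.0, 0.786, 0.244 and 1.0. Over all alternatives the adjusted p of Rps27 ranged from 0.121 to 1.0, from 0.0884 to 1.0, from 0.145 to 0.636 and from 0.870 to 1.0 in the 4 comparisons. By library the sum was 6.18, 7.20 and 5.38 CPM in wt, 7.48, 12.8 and 9.80 in the P195A/+ mice, 13.2, 6.42, 16.9 and 20.3 in the P195A/P195A mice, and 11.6, 13.9 and 18.5 in P195A/-. P195A/P195A replicate 2 was the 1 library with a P195A allele inside the wt range.

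**Figure D5:**
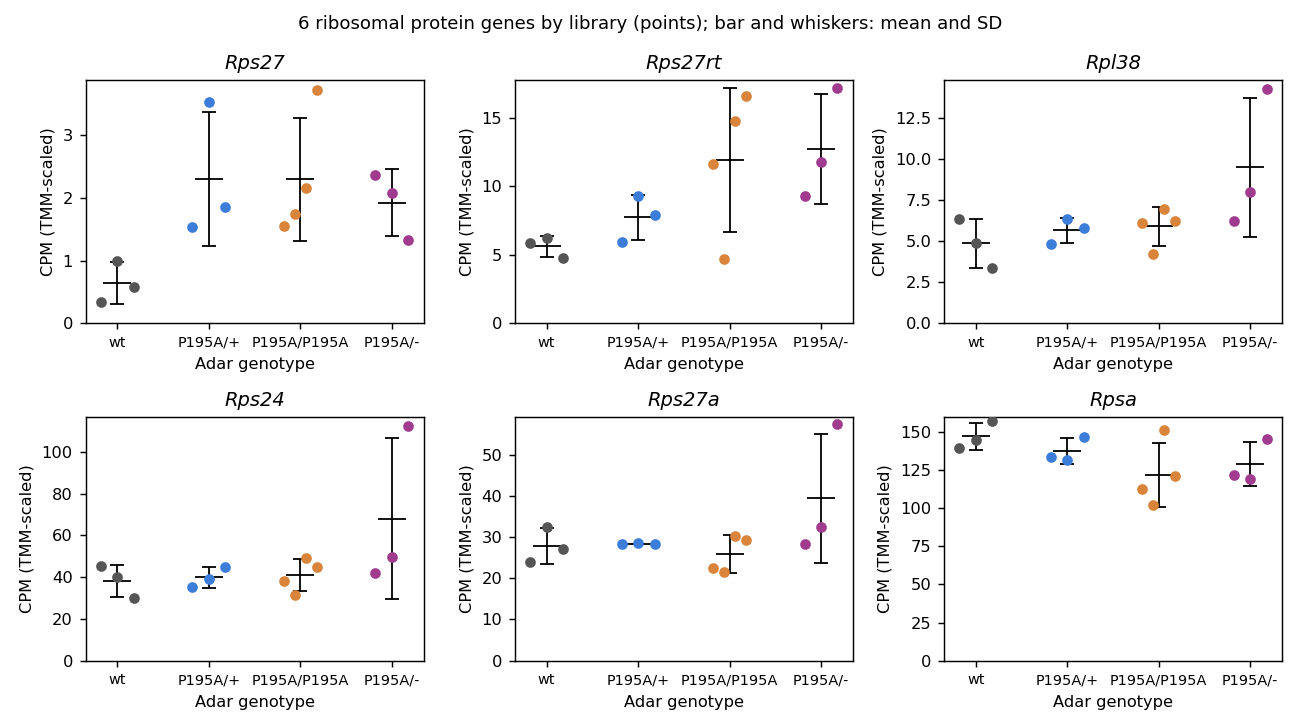
TMM-scaled CPM of Rps27, Rps27rt, Rpl38, Rps24, Rps27a and Rpsa in each library (points) by Adar genotype, with mean and SD. For Rps27 the 3 wt points, up to 0.999 CPM, lie under all others and under the 1 CPM of the member rule. For Rpl38, Rps24 and Rps27a the highest point is P195A/- replicate 3, at 14.3, 113 and 57.3 CPM.

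Copies of ribosomal protein mRNAs elsewhere in the genome took part of the counts. Transcripts at least 95% identical over at least 80% of the shorter were found for 78 members, 597 in all, of which 308 had counts. In 17 members more than 10% of the combined counts lay in such copies, and in 6 members more than in the parent. Rpl10 was the extreme: the gene had a mean of 11.3 CPM and its copies 160.0 CPM, chiefly Rpl10-ps3 and Rpl10-ps1. The copies of Rpl5 held 85.6 CPM against 47.3 for the gene, and those of Rps6, the substrate of the S6 kinases, 33.1 against 38.6 CPM. With its copies added, Rpl5 ranged from 124 to 155 CPM in wt, in place of 34.3 to 75.3. Rpl10-ps1 was measured at 44.8, 53.2 and 65.0 CPM in wt, 69.8, 61.0 and 68.4 in the P195A/+ mice, 51.3, 47.1, 58.5 and 26.5 in the P195A/P195A mice, and 26.0, 38.1 and 0 in P195A/-, where it was listed at 0 in replicate 3. Adding the copies' counts to their parents left the medians of the members at 0.069, -0.019, 0.087 and 0.14 in the 4 comparisons, and no member passed.

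Rps3a1 is a small-subunit gene that the name rule leaves out. Whether it shares reads with Rps3a2 and Rps3a3 was not examined. Rps3a1 was measured at 86.3, 102 and 91.4 CPM in wt and 42.8, 55.2 and 73.4 in P195A/-. In P195A/-, Rps3a2 (16.4, 19.7 and 30.5 CPM) and Rps3a3 (29.1, 30.9 and 39.5 CPM) had counts. In the other 10 libraries Rps3a2 was at most 0.0546 CPM and Rps3a3 at most 0.546 CPM. The fold change of Rps3a1 in P195A/- was -0.70 (SE 0.21, edgeR adjusted p = 0.272) and that of the sum of the 3 entries 0.27 (SE 0.20, edgeR adjusted p = 0.648).

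Other genes of the translation machinery were taken from lists. Of the ribosomal proteins under other names, Fau and Rack1 did not pass in any comparison; Fau, which gives the small-subunit protein eS30, had 11.6 CPM in wt and 20.5 in P195A/- (log2 fold change 0.83, SE 0.38, edgeR adjusted p = 0.475). Of 24 elongation factors and other mRNAs with the tract, 0 passed in any comparison, and at an unadjusted p under 0.05 there were 0 in P195A/+ mice, 0 in P195A/P195A mice and 1 higher and 1 lower in P195A/- against wt (4.58 and 6% of all genes), with 0 higher and 2 lower in P195A/- against P195A/P195A (3.19 and 3.63%). The 1 lower in P195A/- against wt was Pabpc1, the poly(A)-binding protein (-0.26, SE 0.078, edgeR adjusted p = 0.270). The list's medians in the 3 comparisons were 0.029, -0.021 and -0.034, where the ribosomal protein genes had 0.073, -0.019 and 0.12. Of 37 ribosome biogenesis factors 0 passed, with medians of -0.026, -0.025 and 0.0078. Ltv1, a small-subunit assembly factor, had 5.08 CPM in wt and 7.90 in P195A/- (0.64, SE 0.25, edgeR adjusted p = 0.364). Of 21 genes of the mTORC1 pathway 0 passed; 6 of 21 were above 0 in each of the 3 comparisons with the same wt animals (50.8, 51.4 and 53.1% of all genes), with medians of -0.058, -0.10 and -0.086, and 12 of 21 in P195A/- against P195A/P195A (50.8%), with a median of 0.019. Of 78 mitochondrial ribosomal proteins 0 passed, with medians of 0.032, -0.026 and -0.0077.

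Editing was read at known sites, as the share of G among A and G reads on the transcript strand. The deposited lists held 20 sites in 3 members: 11 in the 3′ untranslated region of Rpl7l1, 8 in introns of Rps15a and 1 in a noncoding exon of Rps2. Of these, 4 sites in Rpl7l1 had the 10 reads per library and the pooled level of 1 to 99% needed for a test. They lie within 30 bases on chromosome 17 (chr17:46774915-46774944, minus strand, GRCm38), shown because they are the only tested sites in the 81 genes; the 4 edited bases are in capitals, at 46774937, 46774931, 46774930 and 46774922 from left to right.
Rpl7l1: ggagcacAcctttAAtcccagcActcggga

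Editing levels at the central pair overlapped between all genotypes. At 46774930 the level was 31.98% ± 9.89 (SD, n = 3) in wt, 25.9 ± 3.86 (n = 3) in the P195A/+ mice, 27.4 ± 4.43 (n = 4) in P195A/P195A and 24.1 ± 9.66 (n = 3) in P195A/-, on 123, 150, 151 and 84 reads. At 46774931 it was 33.4% ± 5.71, 31.4 ± 7.52, 34.6 ± 6.48 and 25.4 ± 11.7 in the same order, with ranges that overlapped. At 46774937 it was 11.4% ± 5.67, 14.1 ± 6.67, 16.3 ± 9.84 and 6.90 ± 2.67. At 46774922 there were 3 edited of 127 reads in wt and 6 of 156 in P195A/P195A, 0 of 153 in the P195A/+ mice, which allows a level of up to 1.96%, and 0 of 85 in P195A/-, which allows up to 3.53%; these limits cover counting error only. None of the 4 sites passed an adjusted p of 0.05 in any of the 4 comparisons in edgeR's test (0.0214, 0.225, 0.00705 and 0.0846% of all tested sites passed, in the order of the expression comparisons). At an unadjusted p under 0.05 there was 1 site, 46774922, in P195A/+ against wt and in P195A/- against P195A/P195A, and 0 in the other 2 comparisons; of all sites tested 6.01, 7.95, 3.96 and 7.25% had such a p, in the order above. With 22 to 54 reads per library and site, differences within these standard deviations were not detectable.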

How the data were processed

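RNA-seq of 13 whole brains was used, 1 animal a library, so that the tests set differences against the spread between animals. The deposited table holds estimated counts per gene, which the authors made by trimming with fastp 0.19.5 and quantifying with Salmon, per the submitters' processing notes, which also name edgeR and the build mm10; 99.5% of nonzero values were not whole. Deposited editing tables hold A and G read counts per site and library. The 81 members and all lists were chosen with earlier results of these data known.

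Counts were rounded, filtered for low values (19962 genes kept, all 81 members among them), scaled by TMM and tested in 1 fit of 13 libraries with edgeR 4.0.16 (quasi-likelihood, Benjamini-Hochberg over all genes tested; R 4.3.3, limma 3.58.1). The biological coefficient of variation was 19.1%. Editing was tested in edgeR on edited and unedited reads, at sites with at least 10 reads in each library and a pooled level of 1 to 99%. Scripts were tested on simulated data. Lengths, positions and near-identical transcripts (BLAST 2.17.0) come from GENCODE M21, which matched 51482 of 54307 entries; the others held 0.678% of counts. The annotation release of the deposited table was not given in the sources used here. RefSeq windows held no start for 20 members.

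Named in each comparison were members past an adjusted p of 0.05, or else the 3 with the smallest p, and the highest and lowest fold change among members of at least 10 CPM. Also named were the 5 highest and 5 lowest mean CPM, stalk and paralog genes, Rpsa, Rps27, the 3 highest and 3 lowest wild-type coefficients of variation, the 3 with most counts in copies, and genes of the other lists with the 2 smallest p; other names were chosen after their values were seen. Alternatives were other scalings, no filter, DESeq2 1.42.0, limma-voom, only the genotypes compared, sex as a covariate, replicate block, copies added, the 48-day animals, a minimum of 20 reads at editing sites and leaving out each library. Summing Rps27 with Rps27rt or the Rps3a entries, leaving out 3 libraries together, and the 42-day animals, were added after seeing the data. Some genes that this rule names are not reported here.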

Additional observations from a re-analysis of the deposited data

Results flagged for a closer look

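Among 36 groups of 4 samples or more examined for 1 value far from the others, by a rule that chance meets in about 1 of 20 groups, 2 stood out. Rps2 in P195A/P195A had 186.5 CPM in replicate 3 and 123, 129 and 129.7 CPM in the other 3 libraries. Rps4x in P195A/P195A had 195.5 CPM in replicate 3 and 147, 155 and 155 CPM in the others. Both values belong to the P195A/P195A library in which 77 of 81 members stood above their own mean.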

How the results depend on the processing

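Under the alternatives, 241 summary values (counts, medians and shares) stayed within the set limits of the reported value and 13 moved beyond them. Of the values for single genes, 359 kept direction and side of the threshold, 2 came to pass the threshold and 7 changed sign. In P195A/P195A against wt the members above 0 numbered 73 in the 48-day animals and 16 to 61 with 1 library left out, and the members passing 0 to 1 (1 without P195A/P195A replicate 2). In P195A/- against P195A/P195A the median was 0.36 in the 42-day animals. DESeq2 passed 1 member in P195A/- against wt, among 200 of 19962 genes (7 in edgeR). Direction turned for Rpl10 in P195A/P195A against wt with copies added (-0.019). It also turned for Rps3a1 summed with Rps3a2 and Rps3a3 (0.27 in P195A/- against wt and 0.29 against P195A/P195A). For Rps27 in P195A/- against P195A/P195A it turned when summed with Rps27rt (0.027) and in the 42-day animals (0.22). With 1 library left out, Rps27 in that comparison ranged from -0.44 to 0.070. Summed shares moved with the denominator: over protein-coding nuclear genes they were 0.429% in wt, 0.456% in P195A/+ and 0.455% in P195A/-, and with copies 0.446, 0.473 and 0.464%. The sums and added copies change by construction; otherwise the cause was not tested.

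With the replicate number as a block, 21 members were above 0 in P195A/P195A against wt and Rps27 stood at 0.057 in P195A/- against P195A/P195A; no member passed. Same-numbered libraries correlated at -0.074 to 0.12 in their deviations, 6 of 12 best with their own number, and the labels name no shared litter or day. The low counts of Rps27 and the read depth at the editing sites limit what could be detected.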
